A study of Mus musculus with 35 samples.

Results

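The genes described here encode the collagens, laminins and associated proteins of the extracellular matrix, measured in brown adipose tissue, the heat-producing fat depot of mice. Members were all genes whose names follow the collagen chain pattern or the laminin chain pattern, plus a fixed list of matrix glycoproteins, proteoglycans, proteases, inhibitors and 2 genes of matrix-producing cells. This gave 49 genes out of 13364 gene names in the count tables of both experiments: 24 collagen chain genes, 8 laminin chain genes and 17 listed genes. Of these, 46 were in the table of experiment 1, which did not hold Col4a4, Lamb3 and Thbs1, and 49 in that of experiment 2. Timp1, which is also on the list, was not analysed here. After the filter on low counts 45 members were tested in experiment 1 (all but Col23a1) and 46 in experiment 2 (all but Col4a5, Col7a1 and Thbs2).

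The extracellular matrix of fat has a basement membrane around each adipocyte and vessel, built from sheets of collagen IV and laminin that nidogens and perlecan tie together, and an interstitial part of fibrils of collagens I, III and V. Small leucine-rich proteoglycans bind the fibrils, matricellular proteins such as SPARC adjust how cells attach to them, and metalloproteinases and their inhibitors set their turnover. Fibroblasts, endothelial cells and adipocytes all contribute matrix proteins in adipose tissue, and matrix deposition is known to change when fat depots expand.

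The series compared control mice with Suv420h dKO mice, a double knockout of the methyltransferases Suv420h1 and Suv420h2, which act on lysine 20 of histone H4. The sources used here do not give the alleles, any Cre driver or the strain. Experiment 1 held 15 libraries of mice aged 4 weeks on normal diet: 9 control libraries (5 labelled female, 4 labelled male) and 6 knockout libraries (5 labelled female, 1 labelled male). Experiment 2 held 20 libraries of female mice aged 21 weeks, with 5 libraries in each of 4 groups: control or knockout, on normal diet or on a high fat diet (45 kJ% fat for 14 weeks). RNA was read as 3' tags, so a value counts tags near a transcript's 3' end; levels are CPM, counts scaled to a common library size after TMM adjustment, and fold changes are log2 values of edgeR's quasi-likelihood test with 1 SE. A gene was called when its Benjamini-Hochberg adjusted p over all genes tested was below 0.05. Nothing in the labels says that the libraries of a group are separate animals, so the p-values measure the spread between these libraries, which may be technical.

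Col4a2 and Prelp were the members called at 21 weeks, and their promoters, with that of Col4a1, the neighbour and partner chain of Col4a2, (250 bases before to 50 after the start site, RefSeq, GRCm38.p6, read 5′ to 3′ on the gene's own strand) are shown for that reason. Col4a1 (chr8:11312777-11313076, minus strand) and Col4a2 (chr8:11312555-11312854, plus strand) lie on opposite strands with start sites 21 bases apart, so that the first bases of both genes overlap and the rest of each gene extends away from the other. Capitals mark the 78 bases that both windows hold, which read as reverse complements of each other in the lines for Col4a1 and Col4a2. In the line for Prelp (chr1:133921352-133921651, minus strand) capitals mark CCAAT.
Col4a1: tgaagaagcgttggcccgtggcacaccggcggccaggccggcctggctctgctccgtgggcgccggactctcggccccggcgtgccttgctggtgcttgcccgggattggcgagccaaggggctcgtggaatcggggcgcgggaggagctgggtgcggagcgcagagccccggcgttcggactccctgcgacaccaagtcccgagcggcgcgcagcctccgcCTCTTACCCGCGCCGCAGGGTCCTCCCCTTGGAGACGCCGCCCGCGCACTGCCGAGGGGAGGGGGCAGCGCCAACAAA
Col4a2: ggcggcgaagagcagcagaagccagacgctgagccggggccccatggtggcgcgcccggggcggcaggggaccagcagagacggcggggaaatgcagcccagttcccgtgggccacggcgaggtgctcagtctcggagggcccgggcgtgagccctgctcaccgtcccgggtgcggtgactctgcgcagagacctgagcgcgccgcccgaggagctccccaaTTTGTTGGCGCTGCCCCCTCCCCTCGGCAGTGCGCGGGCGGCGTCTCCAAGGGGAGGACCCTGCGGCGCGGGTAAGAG
Prelp: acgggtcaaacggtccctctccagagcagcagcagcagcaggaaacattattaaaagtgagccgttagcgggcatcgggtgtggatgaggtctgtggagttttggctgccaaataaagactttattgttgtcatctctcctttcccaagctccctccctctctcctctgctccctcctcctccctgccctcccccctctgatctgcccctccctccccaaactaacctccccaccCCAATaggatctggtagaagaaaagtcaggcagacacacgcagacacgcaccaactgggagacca
Of the 49 members, 36 matched the promoter table, with 40 windows in all. CCAAT, searched on both strands, was in 14 of these 40 windows (35%) and in 37.4% of 32851 windows of the same length. GGGCGG was in 24 of 40 (60%) and in 35.7% of all windows, with the shared bases of the collagen IV pair counted in both windows. TATAAA was in 4 of 40 (10%) against 13.6%, and CACGTG in 0 of 40 against 7.15%. All 4 motifs were searched on both strands, none of them contains another, and a match describes the sequence only.

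The total count of a library was between 3069035 and 8140213 in experiment 1 and between 2398807 and 7693388 in experiment 2, of which members held 21286 to 50335 and 8823 to 20658 counts. Suv420h2 stood at 27.1 to 75.02 CPM in controls against 9.99 to 21.1 CPM in knockouts under normal diet, and at 7.39 to 25.8 against 4.84 to 16.9 CPM under high fat diet. Suv420h1 overlapped between genotypes on both diets (37.0 to 53.8 and 26.9 to 54.0 CPM on normal diet). Whether the 3' tags lie in the deleted part of either gene is not stated, and neither gene was analysed here in experiment 1. Brown adipocyte markers were high in all libraries, with Ucp1 between 2527 and 17686 CPM. Skeletal muscle markers varied widely: their summed level was 197 to 45673 CPM in control libraries and 106 to 2640 CPM in knockout libraries with normal diet. With high fat diet it was 64.4 to 5456 CPM in the controls and 77.8 to 185 CPM in the knockouts. In experiment 1, 6 libraries (all 5 labelled male and knockout 2) had a mitochondrially encoded share of 27.4% to 30.1% of counts and the other 9 of 14.1% to 20.4%, and Xist went against the labelled sex in 2 libraries, control 6 and knockout 2.

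Summed over members, matrix tags came to 6802 ± 846 CPM in the control libraries at 4 weeks (SD, n = 9) and to 6668 ± 1406 CPM in the knockout libraries (n = 6). At 21 weeks the sums were 3325 ± 715 CPM for controls and 2617 ± 218 CPM for knockouts fed normal diet, and 2916 ± 385 and 2779 ± 306 CPM for those fed high fat diet (SD, n = 5 each). On normal diet control libraries 2 and 4, the richest in skeletal muscle markers, held the highest sums, 4107 and 3970 CPM. The other controls held 2517 to 3313 CPM, beside 2439 to 2890 CPM in the knockouts. The part of muscle RNA in these sums was not tested. The ranges of the groups overlapped within each experiment. Between the experiments they did not: the lowest library at 4 weeks held 4991 CPM and the highest at 21 weeks 4107 CPM. The experiments were counted and scaled in separate tables, so age and experiment cannot be told apart and no test was made. The sums also cover 46 members at 4 weeks and 49 at 21 weeks, and only experiment 1 holds libraries labelled male. In bulk tissue a lower sum can come from fewer matrix-producing cells or from less RNA per cell. As CPM is a share of the counts, it also depends on the amount of other RNA. These cannot be told apart. By role, the summed level of fibrillar collagen genes was 1038 ± 336 CPM in control libraries at 4 weeks. It was 316 ± 138 CPM in control libraries on normal diet at 21 weeks. For laminin genes it was 309.5 ± 32.8 CPM (7 genes) and 258 ± 33.1 CPM (8 genes) in the same order. Summed fibroblast markers, a list that holds several members, were 498 to 1245 CPM in the controls and 482 to 837 CPM in the knockouts on normal diet.

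**Figure D1:**
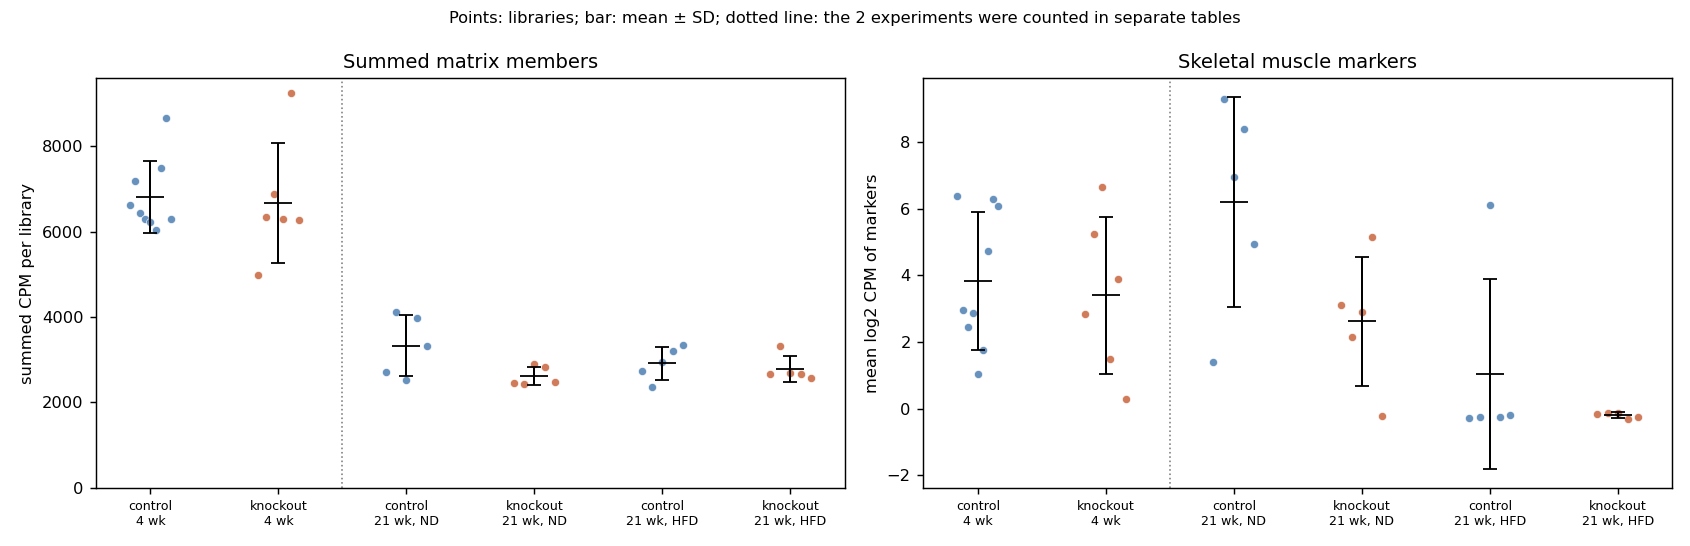
Left, summed CPM of the members found in each table, by library; right, mean log2 CPM of skeletal muscle markers by library; points are libraries, bars are mean ± SD, ND is normal diet and HFD high fat diet. The member sums lie at 4991 CPM or more at 4 weeks and at 4107 CPM or less at 21 weeks, and 3 of the control libraries on normal diet at 21 weeks are the highest on the muscle scale.

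Few members passed the test in any genotype or diet comparison. For genotype at 4 weeks 0 of 45 members were called, against 0.83% of the 10366 genes tested. On normal diet at 21 weeks 1 of 46 was called, the collagen IV chain gene Col4a2, against 2.65% of 12082 genes, and on high fat diet 0 of 46, against 0.116%. For diet 1 of 46 was called in control mice, against 0.795% of genes, and 1 of 46 in knockout mice, against 0.372%; it was the proteoglycan gene Prelp both times. In each of these comparisons the members called thus came to 0 or 1 gene, too few for a statement about the members as a group. The median fold change of members was -0.28 for genotype at 4 weeks, -0.25 for genotype on normal diet and -0.38 for diet in control mice, beside medians over all genes of -0.01, 0.02 and 0.00. It was -0.04 for genotype on high fat diet and -0.13 for diet in knockout mice, beside -0.01 and -0.03 over all genes.

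**Figure D2:**
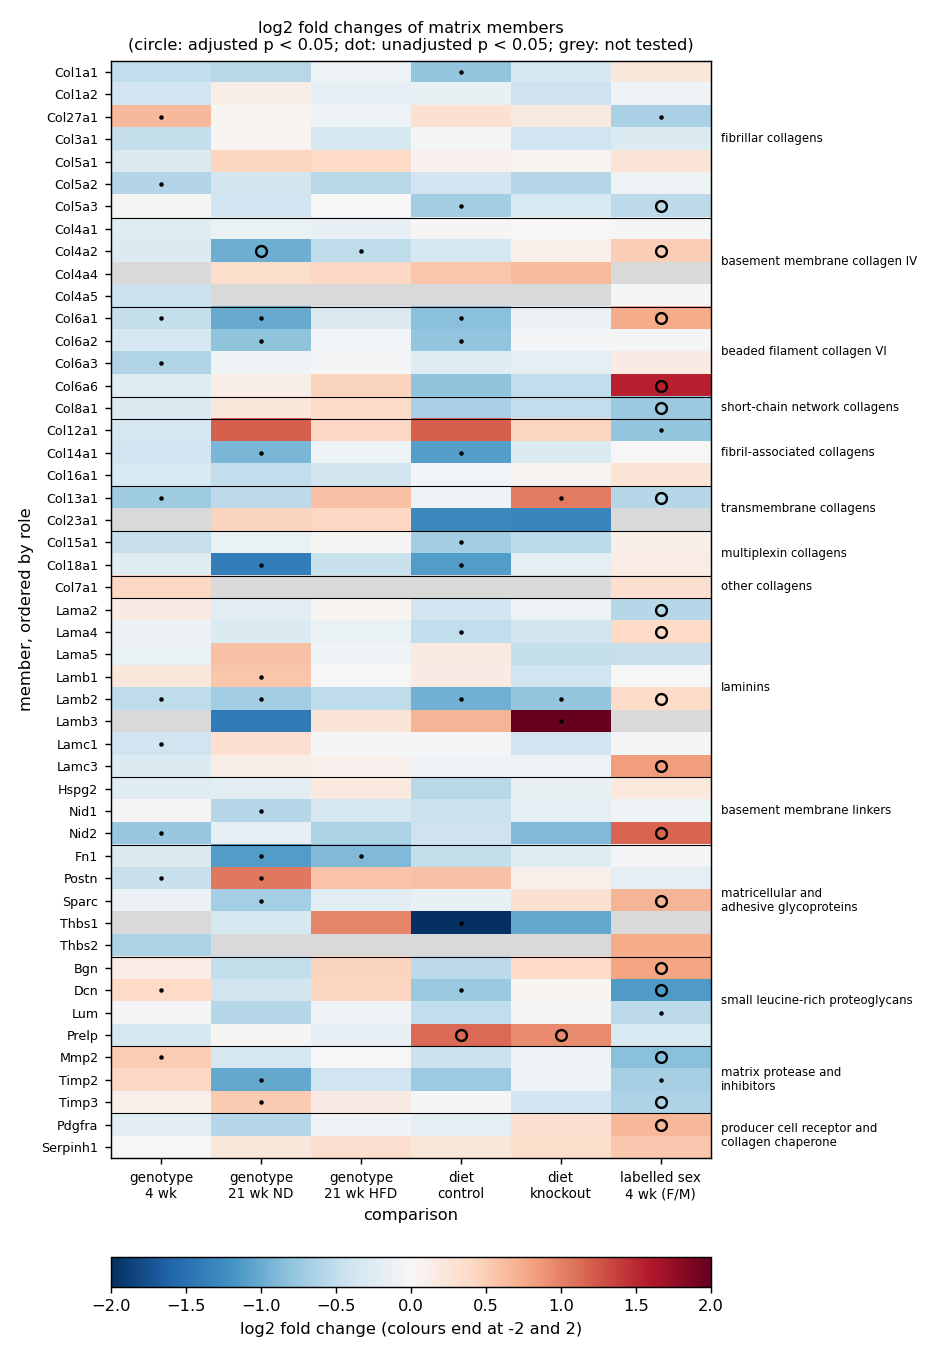
log2 fold changes of every tested member (rows, ordered by role) in 6 comparisons (columns): knockout over control, high fat over normal diet, and labelled female over labelled male; circles mark adjusted p below 0.05, dots unadjusted p below 0.05, grey cells members not tested. Circles stand at Col4a2 for genotype on normal diet, at Prelp in both diet columns and at 17 members for labelled sex.

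Col4a2 encodes the chain that assembles with the product of Col4a1, in a trimer with 2 copies of the latter, into the main collagen IV network of basement membranes. Its gene spans 11312805 to 11449287 on the plus strand of chromosome 8, and Col4a1 spans 11198423 to 11312826 on the minus strand (GRCm38). On normal diet at 21 weeks Col4a2 stood at 95.6, 84.3, 59.1, 99.0 and 52.2 CPM in the 5 control libraries and at 42.6, 41.3, 39.3, 36.7 and 36.6 CPM in the 5 knockout libraries. Every knockout library lay below every control library. Col4a2 fell by 0.97 ± 0.22 on the log2 scale (adjusted p = 0.0202), with counts of 155 to 612 per library in the experiment. Among all genes 1.36% were called lower in this comparison and 1.98% did not overlap in that direction.

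Under the high fat diet Col4a2 stood at 44.5, 46.5, 53.2, 78.2 and 88.7 CPM in the controls and at 49.7, 57.4, 37.7, 35.5 and 35.4 CPM in the knockouts. These groups overlapped, and the fold change of -0.51 ± 0.22 was not called by edgeR (adjusted p = 0.845). The interaction of genotype and diet was 0.46 ± 0.30 for Col4a2 (adjusted p = 0.855), so a difference between the diets was not shown. At 4 weeks Col4a2 ranged from 87.7 through a median of 125 to 178 CPM in the controls and from 93.9 through 107 to 184 CPM in the knockouts, with a fold change of -0.27 ± 0.15 (adjusted p = 0.392).

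Col4a1 did not pass the test in any genotype or diet comparison. Its last kilobase overlaps the antisense gene Gm15418, as that of Timp3 overlaps Syn3 and that of Lama2 Gm48084. With an unknown strand setting the reads of such pairs cannot be told apart. On normal diet at 21 weeks it stood at 115, 131, 97.4, 123 and 121 CPM in the controls and at 99.2, 122, 124, 94.5 and 86.1 CPM in the knockouts, which overlap (-0.14 ± 0.16, adjusted p = 0.643). After high fat feeding the values were 117, 108, 107, 127 and 144 CPM in the controls and 120.4, 121, 115, 89.3 and 89.7 CPM in the knockouts (-0.16 ± 0.16, adjusted p = 0.999). At 4 weeks it ranged from 243 through 323 to 422 CPM in the controls and from 239.5 through 274 to 328 CPM in the knockouts (-0.24 ± 0.14, adjusted p = 0.415). The log2 ratio of Col4a2 to Col4a1 counts within a library was -0.63 ± 0.38 for the controls and -1.41 ± 0.20 for the knockouts fed normal diet (SD, n = 5 each). The 2 sets of ratios did not overlap, with a highest knockout value of -1.22 and a lowest control value of -1.21. An exact permutation test, two-sided, gave p = 0.00794, the smallest it can give, and 0.119 after adjustment over the 15 chain ratios tested. The ratio uses the same Col4a2 counts as the call of Col4a2, so it is no separate evidence. With high fat feeding the ratio was -1.003 ± 0.31 and -1.33 ± 0.19 (exact permutation p = 0.0873), and at 4 weeks -1.32 ± 0.35 and -1.24 ± 0.26 (p = 0.657).

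The call of Col4a2 on normal diet was kept in all 20 fits that left out 1 library (fold change -1.08 to -0.87, highest adjusted p 0.0486 without knockout library 4 on normal diet). It was lost with the muscle score as a covariate (-1.02 ± 0.25, adjusted p = 0.0666) and without the 2 control libraries richest in muscle RNA (-0.81 ± 0.24, adjusted p = 0.105). Skeletal muscle markers moved with this comparison (31 of 31 tested lower in knockouts, median log2 fold change -4.14, 1 called), and their part in the result beyond these fits was not tested. Summed endothelial markers overlapped between control (616 to 1227 CPM) and knockout libraries (853 to 1030 CPM) on normal diet.

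**Figure D3:**
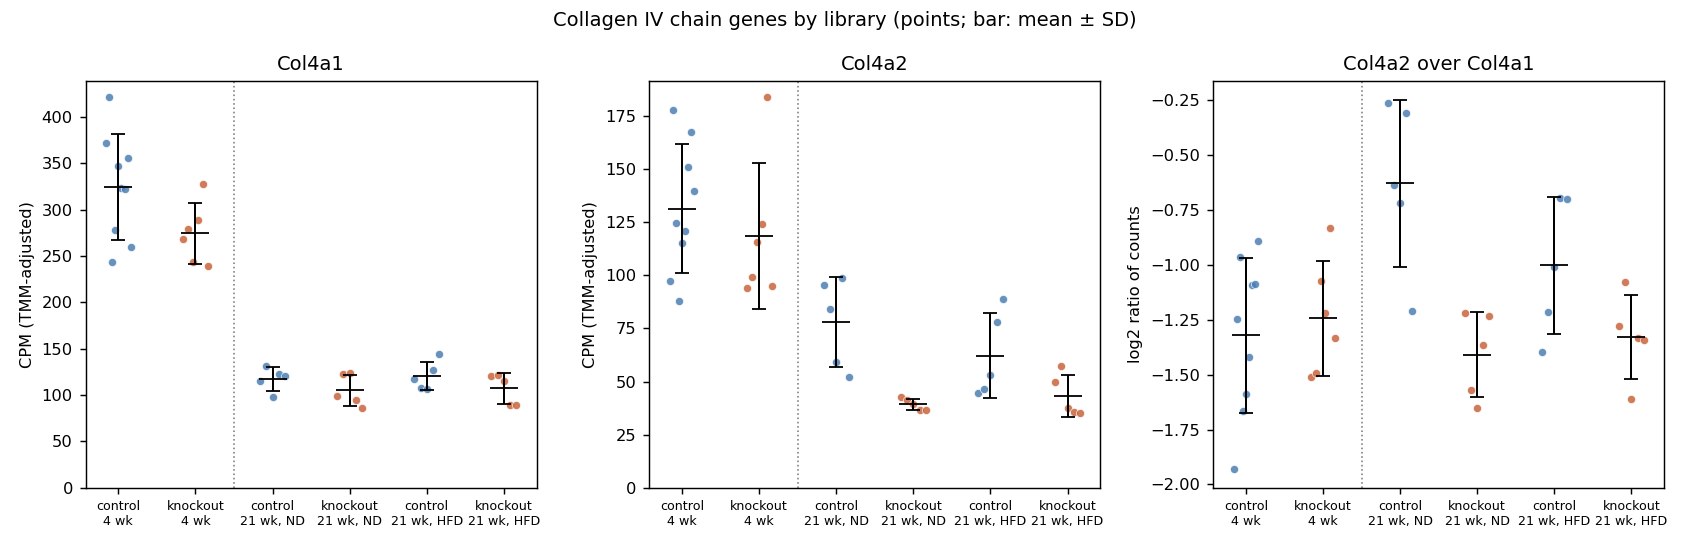
CPM of Col4a1 (left) and Col4a2 (middle) and the log2 ratio of their counts (right) by library; points are libraries, bars are mean ± SD, and the dotted line parts the 2 experiments. On normal diet at 21 weeks the knockout libraries of Col4a2 lie between 36.6 and 42.6 CPM, below the control libraries at 52.2 to 99.0 CPM, while Col4a1 overlaps.

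None of the 8 tested laminin chain genes was called for genotype at 21 weeks by edgeR or DESeq2. With normal diet 2 had an unadjusted p below 0.05, in opposite directions. Lamb1 was higher in knockouts (0.56 ± 0.19, adjusted p = 0.107) and Lamb2 lower. The laminin fold changes on normal diet ran from -1.41 for Lamb3, which was at or near 0 in several libraries, to 0.58 for Lama5. Lama4, a chain of the laminins of vessel and adipocyte basement membranes, stood at 87.5, 97.9, 56.0, 97.2 and 111 CPM in the controls and at 62.1, 74.8, 98.4, 68.0 and 64.7 CPM in the knockouts on normal diet. These overlap (-0.27 ± 0.21, adjusted p = 0.489). Under the high fat diet it stood at 65.6, 46.3, 55.6, 86.5 and 68.4 CPM in the controls and at 60.8, 87.3, 48.0, 49.9 and 44.7 CPM in the knockouts, also overlapping. Lamb2, the beta chain of laminins in vessel and neuromuscular basement membranes, had a negative fold change for genotype at both ages and on both diets without being called in any: -0.51 ± 0.14 at 4 weeks (adjusted p = 0.0906), -0.69 ± 0.29 on normal diet (0.180) and -0.51 ± 0.30 on high fat diet (0.999). At 4 weeks Lamb2 ranged from 20.2 through 31.8 to 45.0 CPM in the controls and from 18.4 through 25.4 to 27.3 CPM in the knockouts. On normal diet at 21 weeks it stood at 14.7, 43.1, 20.2, 27.4 and 17.8 CPM in the controls and at 15.1, 11.9, 12.1, 23.0 and 12.1 CPM in the knockouts, so the groups overlapped there too. DESeq2 called Lamb2 at 4 weeks (-0.51, adjusted p = 0.0292) and not on normal diet at 21 weeks (-0.74, 0.124). Of the linkers, Nid1, which encodes the nidogen that bridges laminin and collagen IV, had -0.58 ± 0.27 on normal diet (adjusted p = 0.229), and -0.0096 without the 2 muscle-rich control libraries. With these left out Lamb2 had -0.23 ± 0.29.

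Of the 7 fibrillar collagen genes edgeR called 0 for genotype on normal diet, 0 had an unadjusted p below 0.05 and DESeq2 called 0, and their fold changes ran from -0.55 for Col1a1 to 0.44 for Col5a1. Col1a1, the major chain of collagen I, stood at 16.1, 141, 27.9, 66.1 and 70.0 CPM in the controls and at 33.8, 40.5, 55.1, 48.0 and 36.0 CPM in the knockouts on normal diet. The control libraries spread on both sides of the knockout libraries (-0.55 ± 0.35, adjusted p = 0.371). After high fat feeding the values were 29.1, 39.1, 40.7, 43.6 and 33.0 CPM in the controls and 38.0, 30.4, 33.9, 34.5 and 35.2 CPM in the knockouts (-0.10 ± 0.35, adjusted p = 0.999). Col3a1, the collagen that forms fibrils with collagen I in soft tissue, stood at 38.9, 103, 54.6, 24.7 and 60.9 CPM in the controls and at 28.6, 62.4, 68.9, 73.4 and 51.6 CPM in the knockouts on normal diet (0.03 ± 0.30, adjusted p = 0.963). With high fat feeding it stood at 55.4, 72.0, 63.1, 45.7 and 40.4 CPM in the controls and at 45.2, 25.3, 43.7, 53.3 and 52.3 CPM in the knockouts (-0.32 ± 0.30, adjusted p = 0.999). Serpinh1, the collagen-specific chaperone, stood at 346, 253, 189.6, 140.4 and 527 CPM in the controls and at 262, 181, 454, 360.2 and 425 CPM in the knockouts on normal diet (0.22 ± 0.30, adjusted p = 0.707). Under the high fat diet it stood at 455, 314, 492, 213 and 252 CPM in the controls and at 363, 389.6, 509, 495 and 427 CPM in the knockouts (0.34 ± 0.30, adjusted p = 0.999). The genotypes overlapped on both diets for Col1a1, Col3a1 and Serpinh1.

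Collagen VI forms beaded filaments near the surface of fat and muscle cells. For genotype on normal diet Col6a2 had -0.80 ± 0.31, Col6a3 -0.07 ± 0.28 and Col6a6 0.14 ± 0.87, and none of them was called. The lowest fold change of this role was that of Col6a1. Col6a1 stood at 33.9, 24.2, 16.3, 28.3 and 19.3 CPM in the controls and at 7.14, 13.7, 13.3, 17.7 and 7.19 CPM in the knockouts on normal diet. All but 1 of the knockout libraries lay below all control libraries, and the fold change of -1.01 ± 0.33 was not called (adjusted p = 0.0868). After high fat feeding it stood at 7.70, 8.98, 17.1, 20.6 and 14.9 CPM in the controls and at 15.1, 6.91, 15.8, 11.5 and 6.60 CPM in the knockouts, which overlap (-0.29 ± 0.33, adjusted p = 0.999). Col18a1, whose product carries endostatin at its end, had the lowest fold change of its role on normal diet, -1.38 ± 0.41 (adjusted p = 0.0652). It stood at 4.84, 23.4, 7.56, 14.4 and 11.1 CPM in the controls and at 5.50, 2.84, 4.16, 5.59 and 4.73 CPM in the knockouts, and its 3' end overlaps that of Slc19a1 on the other strand. DESeq2 called Col18a1, Col6a1, Fn1 and Timp2 lower beside Col4a2 on normal diet (adjusted p = 0.0185, 0.0360, 0.0492 and 0.0423 for these 4 in that order), 5 of 46 members, beside 7.32% of the genes to which it gave an adjusted p. Without the 2 muscle-rich control libraries edgeR gave -0.75 ± 0.41 for Col18a1, -0.95 ± 0.37 for Col6a1, -0.64 ± 0.43 for Fn1 and -0.29 ± 0.35 for Timp2.

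Among the adhesive and matricellular genes the fold changes on normal diet pointed both ways, and edgeR called 0 of 4, while 3 had an unadjusted p below 0.05 and DESeq2 called 1. Sparc, which encodes the collagen-binding protein osteonectin, stood at 834, 878, 713, 1628 and 917 CPM in the controls and at 677, 610.4, 653, 519 and 613 CPM in the knockouts. As for Col4a2, the groups did not overlap, and the fold change of -0.67 ± 0.23 was not called (adjusted p = 0.101) and was -0.41 ± 0.23 without the 2 muscle-rich control libraries. With high fat feeding Sparc stood at 885, 539, 729, 1131 and 1284 CPM in the controls and at 671, 1164, 608, 720.5 and 704 CPM in the knockouts (-0.23 ± 0.23, adjusted p = 0.999). Fn1, which encodes fibronectin, stood at 11.1, 62.9, 18.8, 50.4 and 55.6 CPM in the controls and at 19.5, 11.9, 26.0, 19.5 and 12.5 CPM in the knockouts on normal diet. Of the control libraries, 3 lay above 50 CPM and the other 2 no higher than the highest knockout (-1.11 ± 0.40, adjusted p = 0.117). Under the high fat diet Fn1 stood at 13.2, 23.8, 25.3, 58.2 and 23.9 CPM in the controls and at 16.001, 19.1, 16.3, 12.2 and 13.5 CPM in the knockouts (-0.89 ± 0.39, adjusted p = 0.913).

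Postn, which encodes periostin, a matricellular protein of remodelling tissue, had the highest fold change of its role on normal diet, 1.05 ± 0.35 (adjusted p = 0.0955). It stood at 6.88, 29.8, 15.0001, 9.90 and 17.3 CPM in the controls and at 29.1, 34.0, 27.1, 33.4 and 37.8 CPM in the knockouts. Only control library 2, the one richest in muscle RNA, reached the knockout range. After high fat feeding Postn stood at 26.4, 31.2, 29.8, 19.1 and 12.9 CPM in the controls and at 30.0, 11.5, 42.0, 46.8 and 46.4 CPM in the knockouts (0.57 ± 0.34, adjusted p = 0.999). At 4 weeks its sign was opposite, -0.44 ± 0.19 (adjusted p = 0.272), with 35.7 through 55.0 to 106 CPM in the controls and 37.2 through 39.2 to 48.0 CPM in the knockouts. Thbs1, which encodes thrombospondin, an activator of TGF-beta, was near the limit of detection at 0 to 6.12 CPM in the controls and 0.516 to 3.12 CPM in the knockouts on normal diet (-0.32 ± 0.88, adjusted p = 0.866).

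In all, 13 of 46 members had an unadjusted p below 0.05 for genotype on normal diet, beside 20.8% of all genes, and 10 of 46 had it with a lower level in knockout libraries, beside 10.8% of all genes. For genotype on high fat diet the 0 calls of edgeR stood beside 2 members with an unadjusted p below 0.05, Col4a2 and Fn1 (beside 5.07% of all genes; 2 of 46 lower, beside 2.7%), and beside 0 calls of DESeq2, which called 0.646% of genes. For the interaction of genotype and diet edgeR called 0 of 46 members and 0% of all genes, DESeq2 0 members and 0.0993% of genes, and 1 member, Dcn, had an unadjusted p below 0.05, beside 6.39% of genes.

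The diet comparisons turned on Prelp, a small leucine-rich proteoglycan that anchors basement membranes to the fibrillar matrix; its gene spans 133910304 to 133921414 on the minus strand of chromosome 1. In control mice Prelp stood at 59.7, 53.0, 34.9, 48.6 and 38.3 CPM with normal diet and 93.0, 92.6, 123, 115 and 96.2 CPM with high fat diet. In knockout mice it stood at 56.9, 36.4, 34.3, 56.0 and 51.4 CPM with normal diet and 81.7, 113, 102, 84.5 and 80.2 CPM with high fat diet. Every library on high fat diet lay above every library on normal diet, in both genotypes; among all genes 1.76% in control and 2.88% in knockout mice had diet groups that did not overlap in this direction.

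Prelp rose by 1.13 ± 0.19 with high fat diet in control mice (adjusted p = 0.00499) and by 0.94 ± 0.19 in knockout mice (adjusted p = 0.0204). These comparisons share no library. Of all genes 0.406% were called higher in control and 0.182% in knockout mice, 8 genes were called in both comparisons, and 49 of 12082 genes (0.406%) had diet groups that did not overlap in the same direction in both genotypes. By p-value Prelp ranked 6 and 17 of 12082 genes. Its interaction of genotype and diet was -0.19 ± 0.26 (adjusted p = 0.930), and its fold change for genotype was 0.02 ± 0.19 on normal and -0.16 ± 0.18 on high fat diet. At 4 weeks, on normal diet, Prelp ranged from 70.4 through 85.6 to 124 CPM in the controls and from 25.6 through 73.5 to 110.4 CPM in the knockouts (-0.32 ± 0.23, adjusted p = 0.518).

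The call of Prelp in control mice was kept in all 20 fits that left out 1 library, and that in knockout mice in 14 of 20, with a highest adjusted p of 0.0759 without knockout library 2 on normal diet. The 6 libraries whose removal ended it were knockout libraries 2 and 3 on normal diet and 1 to 4 on high fat diet. With the muscle score as a covariate neither call was kept, while the fold changes were 1.19 ± 0.24 (adjusted p = 0.0954) and 0.98 ± 0.21 (adjusted p = 0.0639). Skeletal muscle markers had negative fold changes with high fat diet in control mice (31 of 31 tested, median -3.82, 0 called) and knockout mice (30 of 31, -5.76, 0 called). Among them Mybpc2, Mybpc1, Ampd1 and Myoz1 were at 0 in every knockout library fed high fat. Their part in the result beyond this fit was not tested. Summed Schwann cell markers did not overlap between diets. They were 525 to 829.4 CPM with high fat against 238 to 434 CPM with normal diet in control mice, and 286 to 531 against 199 to 260.3 CPM in knockout mice. Much of these sums was S100b alone. In control mice S100b stood at 433 to 759 CPM with high fat against 85.4 to 352 CPM with normal diet. In knockout mice it stood at 212 to 452 against 93.8 to 181 CPM. Summed brown adipocyte markers were 22609 to 31196 against 12608 to 23053 CPM in control mice, which overlap, and 22941 to 30266 against 14023 to 19148 CPM in knockout mice, which do not. Of these lists S100b, Fabp3, Cpt1b and Slc25a20 were called higher with high fat diet in control mice, and Elovl3 and Fabp3 in knockout mice. The part of these markers in the Prelp result was not tested. The last kilobase of Prelp overlaps the antisense gene Gm15851, and the sources used here do not give the strand setting of the counting, so reads of the 2 genes cannot be told apart.

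**Figure D4:**
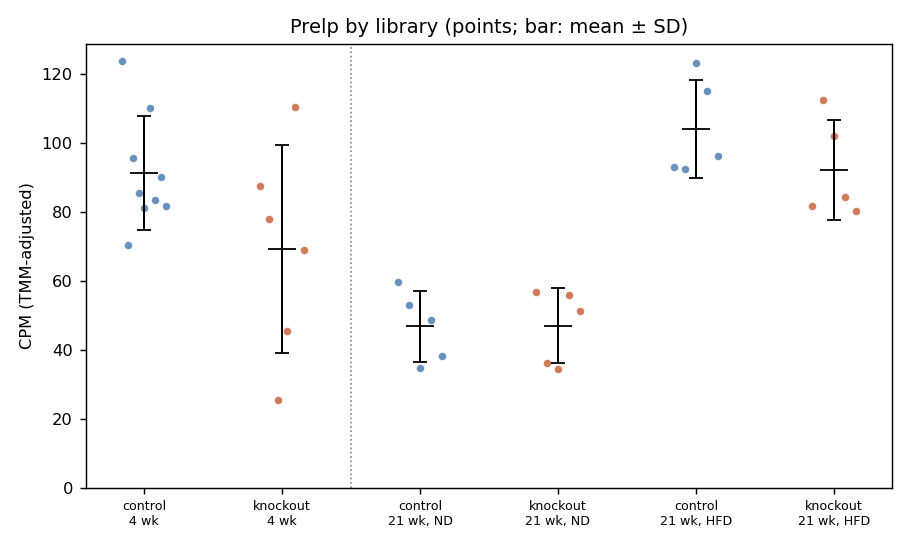
CPM of Prelp by library in the 6 groups; points are libraries, bars are mean ± SD, and the dotted line parts the 2 experiments. Libraries on high fat diet lie between 80.2 and 123 CPM and those on normal diet at 21 weeks between 34.3 and 59.7 CPM, with no overlap in either genotype.

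No other member was called for diet. In control mice 12 of 46 members had an unadjusted p below 0.05, beside 16.2% of all genes, and 11 of 46 had it with a lower level on high fat diet, beside 8.2% of all genes. The other proteoglycan genes had negative fold changes in control mice, the lowest being that of Dcn, which encodes decorin, at -0.74 ± 0.24 (adjusted p = 0.118). With the muscle score as a covariate Dcn had -0.20 ± 0.29 and Lamb2 -0.25 ± 0.37 in control mice. Lamb2 had -0.96 ± 0.29 in control mice (adjusted p = 0.0985), where it stood at 10.9, 8.80, 13.1, 11.7 and 19.3 CPM on high fat diet. In knockout mice Lamb2 had -0.78 ± 0.30 (adjusted p = 0.356), with 6.88, 12.2, 7.21, 8.22 and 9.82 CPM on high fat diet. DESeq2 called Lamb2 in control mice (-1.003, adjusted p = 0.0386), and with Prelp thus 2 of 46 members, beside 4.16% of genes.

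For diet in control mice the core genes ran from -2.31 ± 0.96 for Thbs1 and -0.83 ± 0.33 for Col6a1 to 0.59 ± 0.35 for Postn. With the muscle score as a covariate Thbs1 had -0.66 ± 1.34. Col1a1 stood at -0.79 ± 0.35 (adjusted p = 0.252), and its sign turned to 0.26 with that covariate. Lama4 stood at -0.50 ± 0.21, Fn1 at -0.47 ± 0.39, Col4a2 at -0.35 ± 0.21, Sparc at -0.14 ± 0.23, Col3a1 at -0.05 ± 0.30, Col4a1 at 0.02 ± 0.16 and Serpinh1 at 0.23 ± 0.30. In knockout mice only 4 of 46 members had an unadjusted p below 0.05 for diet, beside 9.21% of all genes: Prelp, Lamb2, Lamb3 (2.36 ± 0.97) and Col13a1 (1.04 ± 0.43). Lamb3 stood at 0, 0 and up to 0.824 CPM with normal diet and at 1.86 to 3.16 CPM on high fat diet in knockout mice, so its change rests on very few tags.

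At 4 weeks no member passed the test for genotype. Of 45 members, 33 had a negative and 12 a positive fold change; 11 had an unadjusted p below 0.05, beside 15.9% of all genes, 8 of 45 with a lower level in knockout libraries, beside 7.63%, and 3 of 45 with a higher one, beside 8.29%. Beside the 0 calls of edgeR, DESeq2 called 2 of 45, Lamb2 and Col13a1, beside 3.07% of genes. Col13a1, a transmembrane collagen of cell adhesion sites, ranged from 6.71 through 12.7 to 23.9 CPM in the controls and from 5.27 through 7.46 to 9.64 CPM in the knockouts, which overlap (-0.71 ± 0.21, adjusted p = 0.112). All 4 collagen VI genes had negative fold changes, from -0.24 for Col6a6 to -0.60 ± 0.18 for Col6a3 (adjusted p = 0.128). Col6a1 ranged from 13.6 through 20.8 to 37.8 CPM in the controls and from 10.4 through 19.99 to 26.0 CPM in the knockouts (-0.48 ± 0.17, adjusted p = 0.184).

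The protease gene Mmp2 and the inhibitor genes Timp2 and Timp3 all had positive fold changes at 4 weeks, the highest for Mmp2, the gelatinase that cleaves denatured collagen and collagen IV, at 0.51 ± 0.15 (adjusted p = 0.118). Mmp2 ranged from 5.92 through 11.2 to 21.1 CPM in the controls and from 12.0 through 13.7 to 23.7 CPM in the knockouts. Col1a1 ranged from 224 through 340.1 to 661 CPM in the controls and from 197 through 297 to 376 CPM in the knockouts (-0.49 ± 0.25, adjusted p = 0.348). Col3a1 ranged from 154 through 255 to 476 CPM in the controls and from 115 through 173 to 242 CPM in the knockouts (-0.48 ± 0.25, adjusted p = 0.361). Both collagens had their highest values in control libraries, and the groups overlapped.

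The remaining core genes were not called for genotype at 4 weeks: Sparc had -0.12 ± 0.17, Lama4 -0.11 ± 0.13, Fn1 -0.28 ± 0.28 and Serpinh1 0.01 ± 0.26. Lack of a call at these SEs does not show that the genotypes were alike. Within the set of 9 libraries with the lower mitochondrial share (5 control, 4 knockout) 0 members were called, with Lamb2 at -0.64 ± 0.17, Col13a1 at -0.55 ± 0.24, Col6a3 at -0.44 ± 0.22 and Mmp2 at 0.50 ± 0.20. Within the set of 6 with the higher share (4 control, 2 knockout) 0 were called, with Lamb2 at -0.12 ± 0.21, Col13a1 at -1.24 ± 0.34, Col6a3 at -0.82 ± 0.20 and Mmp2 at 0.18 ± 0.26. The fold changes of these 4 genes had the same sign in both sets. The genes were named after the fit over all 15 libraries was seen, and that fit holds both sets. Their shared sign is therefore no separate evidence. The share of all genes called within each set is not given here, so the 0 calls say nothing particular about the members.

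The authors' deposited table for experiment 1 gave 3 members an adjusted p below 0.05, all lower in knockout mice, beside 4.3% of its genes: Col13a1 (log2 fold change -0.83, adjusted p = 0.0159), Lamb2 (-0.48, 0.0380) and Col6a3 (-0.54, 0.0389). The authors' deposited table for experiment 2, whose diet is not stated, gave 2, beside 3.52% of its genes: Col4a2 (-1.29, adjusted p = 0.0128) and Postn (1.97, 0.0189). These tables come from the same experiments and are not independent of the tests above.

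The comparison of labelled sex at 4 weeks had far more calls, 17 of 45 members (10 higher and 7 lower in libraries labelled female), beside 35.2% of all genes (17.8% higher and 17.4% lower), a share close to that of the members. All 5 libraries labelled male belong to the set of higher mitochondrial share, which holds only 1 library labelled female, so labelled sex and library set cannot be told apart. With the set as a term beside sex 0 members were called. The share of all genes called in that fit is not given here, so this count says nothing particular about the members. Log2 fold changes in that fit were -0.76 ± 0.34 for Mmp2, 0.85 ± 0.56 for Nid2, 0.68 ± 0.37 for Col6a1, -0.43 ± 0.27 for Dcn, 0.22 ± 0.31 for Bgn, 0.23 ± 0.33 for Sparc and 0.17 ± 0.32 for Timp3. No fit was made within a set, since 1 set holds no library labelled male and the other 1 labelled female. Dcn stood at 203 through 275 to 329 CPM in the libraries labelled male and at 95.5 through 131 to 232 CPM in those labelled female. The highest value among the latter was that of knockout 2, whose Xist and mitochondrial share go with the libraries labelled male, and Dcn was lower in libraries labelled female by a log2 fold change of -1.13 ± 0.16 (adjusted p = 1.53e-04).

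Mmp2 ranged from 14.2 through 16.5 to 23.7 CPM in libraries labelled male and from 5.92 through 11.6 to 14.8 CPM in those labelled female (-0.84 ± 0.15, adjusted p = 6.80e-04). Bgn, which encodes biglycan, ranged from 69.7 through 86.1 to 95.4 CPM in libraries labelled male and from 110.1 through 138 to 239 CPM in those labelled female (0.79 ± 0.17, adjusted p = 0.00205). It was the only member whose 2 sexes as labelled did not overlap, beside 5.75% of all genes, 3.33% in this direction. Nid2, the second nidogen, ranged from 2.29 through 3.42 to 8.08 CPM in libraries labelled male and from 5.16 through 7.48 to 14.2 CPM in those labelled female (1.17 ± 0.26, adjusted p = 0.00218), and its 3' end overlaps that of Rtraf on the other strand. The 2 proteoglycan genes Dcn and Bgn thus lay in opposite directions between the same libraries.

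Of the other called members, Sparc (0.68 ± 0.18) ranged from 1788 through 2493 to 2694 CPM in libraries labelled male and from 2687 through 3474 to 5849 CPM in those labelled female. Col6a1 (0.74 ± 0.18) ranged from 10.4 through 15.5 to 20.8 and from 16.2 through 21.2 to 37.8 CPM, Col6a6 (1.56 ± 0.43) from 0.250 through 0.488 to 2.13 and from 1.43 through 2.44 to 3.94 CPM, and Timp3 (-0.62 ± 0.19), an inhibitor of metalloproteinases, from 221 through 278 to 352 and from 121 through 171 to 297 CPM, in the same order. Pdgfra (0.67 ± 0.21), a receptor of adipose fibroblasts and progenitors, Col4a2 (0.48 ± 0.16), Lamc3 (0.83 ± 0.28) and Lama4 (0.40 ± 0.14) were higher in libraries labelled female. Lama2 (-0.57 ± 0.18), Col5a3 (-0.52 ± 0.17) and Col8a1 (-0.74 ± 0.27) were lower, and Col13a1 and Lamb2 were the other 2 called. The core genes Col1a1 (0.22 ± 0.26), Col3a1 (-0.28 ± 0.25), Col4a1 (-0.03 ± 0.14), Fn1 (-0.03 ± 0.29), Postn (-0.20 ± 0.19) and Serpinh1 (0.54 ± 0.27) were not called.

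**Figure D5:**
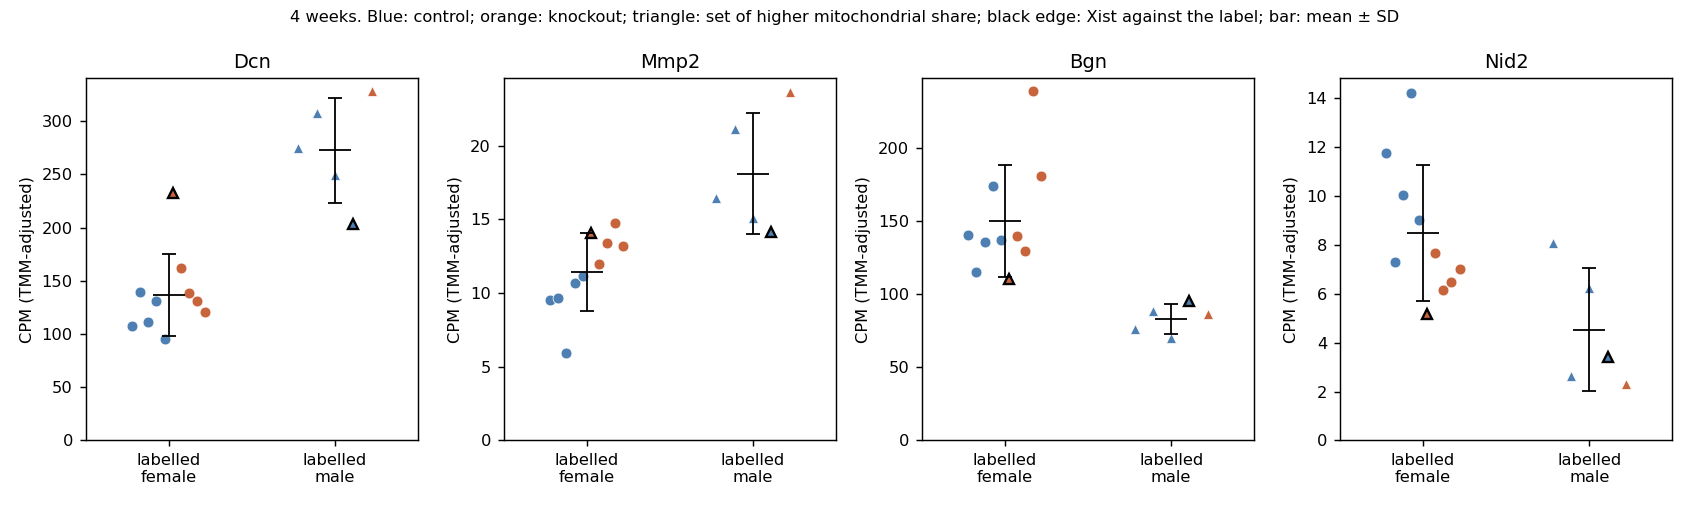
CPM of Dcn, Mmp2, Bgn and Nid2 at 4 weeks by labelled sex; blue points are control and orange points knockout libraries, triangles the set of higher mitochondrial share, black edges the 2 libraries whose Xist goes against the label, and bars mean ± SD. Dcn and Mmp2 lie higher and Bgn and Nid2 lower in the libraries labelled male, and knockout 2, a triangle labelled female, lies at 232 CPM for Dcn.

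Beyond the members, 5 lists of other matrix genes were read from the same tests: collagen processing, matrix turnover, other matrix proteins, matrix receptors and the TGF-beta pathway. For genotype on normal diet 4 of their 138 genes were called by edgeR, beside 2.65% of all genes, and 8 by DESeq2, beside 7.32%. Loxl1, a lysyl oxidase that cross-links elastin and collagen, fell by 1.11 ± 0.23 on the log2 scale (adjusted p = 0.0138), from 41.2 to 68.8 CPM in control to 18.5 to 37.8 CPM in knockout libraries, which do not overlap. Colgalt1, which adds galactose to collagen, fell by 0.80 ± 0.21 (adjusted p = 0.0406), and 2 of 27 collagen processing genes were thus called lower and 0 higher. Smoc1, a SPARC-related protein, fell by 0.78 ± 0.21 (adjusted p = 0.0468), and the syndecan Sdc4 rose by 0.98 ± 0.27 (adjusted p = 0.0488), the only called genes of 30 other matrix proteins and 29 receptors. Of these 4 calls that of Loxl1 was kept with the muscle score as a covariate (-1.26 ± 0.27, adjusted p = 0.0380) and without the 2 muscle-rich control libraries (-1.13 ± 0.26, adjusted p = 0.0414). Those of Colgalt1, Smoc1 and Sdc4 were lost in both fits. Their fold changes there were, for Colgalt1, -0.67 and -0.62, for Smoc1 -1.01 and -0.79 and for Sdc4 1.13 and 1.04. Leaving out 1 library gave between 1 and 7 calls in the 5 lists, beside 127 to 888 calls over all genes. Loxl1 was also called for diet in knockout mice, with a rise of 1.65 ± 0.23 (adjusted p = 0.00216) to 71.3 to 114 CPM on high fat diet. This call and that for genotype share the 5 knockout libraries on normal diet, so they are not independent. In control mice Loxl1 stood at 44.2 to 101 CPM on high fat diet and was not called for diet. In these 5 lists edgeR called 0 genes for genotype at 4 weeks, for genotype on high fat diet, for diet in control mice and for the interaction, where DESeq2 called 1, 0, 5 and 0, and where 17 of 130, 4 of 138, 21 of 138 and 6 of 138 had an unadjusted p below 0.05, beside 15.9%, 5.07%, 16.2% and 6.39% of all genes. Of 25 TGF-beta pathway genes and 27 matrix turnover genes edgeR called 0 in each comparison of experiment 2. At 4 weeks 42 of the 130 genes of these lists were called for labelled sex, beside the share of 35.2% of all genes.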

How the data were processed

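RNA from 35 brown adipose libraries was read as QuantSeq 3' tags, per the labels' protocols. The submitters' processing notes name STAR 2.5.3a, featureCounts, limma and mm10/GRCm38; the sources used here do not give the annotation, strand setting or filters. The authors deposited raw counts per gene, and tables of log2 fold changes with p-values for comparisons of their own. In experiment 2, 18 gene names had turned into dates, with 0.09% of counts.

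The counts were tested here with edgeR 4.0.16 (R 4.3.3): TMM scaling, filterByExpr with a minimum count of 10, the robust quasi-likelihood test, and p-values adjusted over all genes by Benjamini and Hochberg. Experiment 1 was fitted with genotype and labelled sex, and experiment 2 over its 4 groups. DESeq2 1.42.0 was an alternative; others changed scaling, filter, covariates and libraries. The fit was also run on simulated counts drawn from a common profile. These held no differences in muscle RNA, library set or sex, so they cannot show how the fit handles those.

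Members and lists were chosen with earlier results of these data known. Named were all called members (for labelled sex, those with the smallest adjusted p and the rest by name), a set of core genes in every comparison, and the highest and lowest of a role; other members named with values were chosen after these were seen. Col4a3bp, which matches the collagen pattern only in its first letters, was left out. Replicate numbers were checked for pairing: same-numbered libraries deviated together (r over 0.1) in 2 of 6 pairs in experiment 1 and 6 of 30 in experiment 2, so no pairing was assumed. Total counts of 2398807 to 8140213 per library set the precision; counting error is large below about 10 counts.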

Additional observations from a re-analysis of the deposited data

Results flagged for a closer look

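In 6 of 88 sets of values (16 genes by group) 1 library lay far from the others of its group; chance gives about 5% of such sets, or 1 in 20. Sparc stood at 1628 CPM in control library 4 on normal diet, beside 713 to 917 CPM in the other 4, and at 1164 CPM in knockout library 2 on high fat diet, beside 608 to 720.5 CPM. Fn1 stood at 58.2 CPM in control library 4 on high fat diet, beside 13.2 to 25.3 CPM. At 4 weeks Col4a2 stood at 184 CPM in knockout library 5, beside 93.9 to 124 CPM, and Postn at 106 CPM in control library 1, beside 35.7 to 64.0 CPM. Mmp2 stood at 23.7 CPM in knockout library 1, beside 12.0 to 14.8 CPM; it is the only knockout library labelled male.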

How the results depend on the processing

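The count of members called changed with the tool, the covariates and the libraries. DESeq2 called 2 for genotype at 4 weeks, 5 on normal diet and 2 for diet in control mice. With the library set replacing sex as a term, 1 member was called for genotype at 4 weeks, and with the set beside sex 0 for labelled sex. With the muscle score as a covariate 0 were called for genotype on normal diet and for diet in either genotype, and without the 2 muscle-rich control libraries 0 for genotype on normal diet. For the 5 other lists the counts were, for genotype at 4 weeks, 1 with DESeq2, 2 with the set in place of sex and 1 with it beside sex, and for labelled sex 0 with the set beside sex. On normal diet they were 8 with DESeq2 and 1 each with the muscle score, without the 2 control libraries and with only the 2 groups compared. For diet they were 5 with DESeq2 in control mice, and 2 each in knockout mice with DESeq2, without the 2 control libraries and with only the 2 groups. For these fits other than DESeq2 the share of all genes called is not given here. Their counts therefore say nothing particular about the members or the lists. The causes were not tested.

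With the replicate block, which rests on numbers that do not pair the libraries, 1 member was called for labelled sex and 0 for diet in knockout mice, and 5 and 1 genes of the other lists for labelled sex and for genotype on normal diet. The share of all genes called with this block is not given here. Under the block the sign turned for Col13a1 (0.17) and Col8a1 (0.29) between labelled sexes. With the set beside sex it turned for Col12a1 (0.69), Col27a1 (0.23), Timp2 (0.47) and Timp3 (0.17), and with the muscle score for Col1a1 (0.26) for diet in control mice.

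Leaving out 1 library gave 11 to 22 members for labelled sex, 1 to 4 for genotype on normal diet, 1 to 1 for diet in control and 0 to 1 in knockout mice, and 0 to 0 in the other comparisons. In the other lists it gave 0 to 1 for genotype at 4 weeks, 32 to 48 for labelled sex, 1 to 7 on normal diet, and 0 to 2 and 1 to 2 for diet in control and knockout mice. Over all genes the same fits called 2869 to 4216 for labelled sex and 127 to 888 for genotype on normal diet. They called 21 to 358 genes for diet in control and 6 to 67 in knockout mice. For genotype at 4 weeks, genotype on high fat diet and the interaction they called 18 to 147, 10 to 17 and 0 to 2 genes. With mitochondrially encoded genes removed, an alternative chosen after seeing the data, the summed levels became 8659 and 8479 CPM in control and knockout at 4 weeks, 4095 and 3254 CPM on normal diet and 3586 and 3448 CPM on high fat diet. Members with few counts, such as Thbs1 and Lamb3, cannot show moderate changes at this depth.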
